A study of Mus musculus with 2 samples.

Results

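Genes of fat cells (Adipoq, Pparg, Plin1, Plin4, Fabp4, Lpl, Cfd, Hp, Apoc1 and Lep) are described here in cells cultured from mouse aorta. All 10 were found among the 32285 genes of the matrix. They were chosen from values already measured in this library, in which Adipoq and several of the others led a small set of stromal cells. Their levels in those cells are therefore a description, with no test. Per the labels' protocols, 2 C57BL/6J mice, male and 12 weeks old, gave the aortas, which were freed of perivascular fat and digested. Their cells formed macrophage colonies over 14 days in a methylcellulose gel. Colonies were dispersed, viable cells were sorted, and 1 droplet library of 3′ ends was made after cells had been tagged with lipid-anchored oligonucleotides (MULTI-seq). A single library has no replicate, so intervals below cover counting error only, and every comparison is between cells that share that library.

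Levels are given as CPM, the unique molecular identifiers (UMIs, each marking 1 captured RNA molecule) of a gene per 1000000 gene UMIs of a cell, or of a class of cells summed. Of 30755 cells kept, 39 had Adipoq at 200 CPM or more. Other classes were set by the share of a cell's UMIs in named genes: fibroblasts by Col1a1, Col1a2, Col3a1 and Dcn at 0.3% or more, macrophages by 6 macrophage genes at 0.2% or more, and mast cells by 4 mast cell genes at 3% or more. The 39 cells split into 22 that met the fibroblast rule alone, 10 that met no rule, 5 that met the macrophage rule and 2 that met the mast cell rule. The 22 are called Adipoq stromal cells and made up 0.0715% of cells kept (exact binomial 95% interval 0.0448 to 0.108). They were set beside 4483 other fibroblasts, 2029 macrophages and 22029 mast cells, all with Adipoq below 200 CPM. These classes are ranges of a score and not types, and 6 cells that met the fibroblast rule had Adipoq between 150 and 200 CPM, against 4 Adipoq stromal cells between 200 and 250.

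Some facts of the library bear on every value. The Adipoq stromal cells held 497147 UMIs in all, with a median of 24272 per cell and a range from 2730 to 40168. The median was 30683 in other fibroblasts, 7713 in macrophages and 11365 in mast cells. The labels name male mice, but Xist, the RNA of the inactive X chromosome, had a UMI in 16 of the 22 Adipoq stromal cells and in 68.2% of all cells kept, and the Y-linked gene Ddx3y had one in 10 of the 22, so the origin of the cells is not settled by the labels. Tag rows named Cafum, Matrigel and Macrophages stood in the matrix, and the labels do not say which suspension each marked. The library of tags listed on its own in the labels was not analysed here.

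Adipocytes store fatty acids as triglyceride in a droplet coated by perilipins and secrete hormones into the blood. The nuclear receptor PPARγ, encoded by Pparg, works with C/EBP factors to switch on the genes of this program, among them the fatty acid carrier Fabp4 and the hormone adiponectin (Adipoq). Around the aorta, fat cells lie in the perivascular layer next to the adventitia, whose fibroblast-like cells include adipocyte precursors.

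Promoter windows from RefSeq (GRCm38.p6, 250 bases before to 50 after a transcript start) were at hand for 6 of the 10 genes, in 8 windows: Adipoq, Cfd, Plin1, Plin4 and Lep with 1 each and Pparg with 3. The genes not in the table were Fabp4, Lpl, Apoc1 and Hp. Each window was searched on both strands for TTGCNNAA, a C/EBP-like motif, AGGTCA, the nuclear receptor core site, AGGTCANAGGTCA, the repeat that PPARγ binds with RXR, CCAAT and TATAAA. Among 32851 RefSeq promoters, TTGCNNAA stood in 10.8%, AGGTCA in 16.3%, the AGGTCANAGGTCA repeat in 0.0396%, CCAAT in 37.4% and TATAAA in 13.6%. Shown are Adipoq, which defines the cells, the Pparg window with C/EBP-like matches, and Plin1 and Lep, which were nearly silent in the cells. Capitals mark the matches, and the first base listed is the most upstream one.
Adipoq: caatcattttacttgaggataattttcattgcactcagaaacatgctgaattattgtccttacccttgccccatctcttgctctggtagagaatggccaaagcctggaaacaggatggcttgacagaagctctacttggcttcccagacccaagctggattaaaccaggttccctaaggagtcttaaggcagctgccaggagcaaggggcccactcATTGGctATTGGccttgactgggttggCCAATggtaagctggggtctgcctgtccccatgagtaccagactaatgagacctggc
Pparg: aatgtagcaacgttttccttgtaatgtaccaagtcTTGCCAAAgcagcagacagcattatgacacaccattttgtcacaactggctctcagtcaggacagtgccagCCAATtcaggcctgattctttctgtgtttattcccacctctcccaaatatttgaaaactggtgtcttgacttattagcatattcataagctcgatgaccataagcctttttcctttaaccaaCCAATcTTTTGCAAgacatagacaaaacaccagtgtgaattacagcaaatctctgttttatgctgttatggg
Plin1: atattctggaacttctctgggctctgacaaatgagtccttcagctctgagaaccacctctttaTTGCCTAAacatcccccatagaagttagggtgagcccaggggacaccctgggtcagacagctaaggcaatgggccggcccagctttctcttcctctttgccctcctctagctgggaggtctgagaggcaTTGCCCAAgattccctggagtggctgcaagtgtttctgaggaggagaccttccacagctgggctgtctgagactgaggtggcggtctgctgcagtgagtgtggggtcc
Lep: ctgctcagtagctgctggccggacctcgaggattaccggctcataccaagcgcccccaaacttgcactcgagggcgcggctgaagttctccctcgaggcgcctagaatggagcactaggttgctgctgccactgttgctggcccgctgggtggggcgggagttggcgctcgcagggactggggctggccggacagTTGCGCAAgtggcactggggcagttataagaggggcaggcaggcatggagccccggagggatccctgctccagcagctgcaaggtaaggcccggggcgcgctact

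The Adipoq window, chr16:23146286-23146585 on the plus strand, held CCAAT 3 times, the nearest match starting 7 bases before the transcript start. The Pparg window shown, chr6:115421816-115422115 on the plus strand, held TTGCNNAA at 215 and 16 bases before the start and CCAAT at 144 and 22. Plin1, chr7:79732727-79733026 on the minus strand, held TTGCNNAA at 187 and 58 bases before the start, and Lep, chr6:29059971-29060270 on the plus strand, held a TTGCNNAA match that reads the same on both strands at 55. The other Pparg windows each held AGGTCA, Plin4 held 1 CCAAT, and the Cfd window held none of the motifs. C/EBP-like matches thus stood both in a gene well covered by UMIs in Adipoq stromal cells (Pparg) and in genes with none (Plin1 and Lep), and a match is a description of letters only.

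Of the 10 genes, 8 had 10 CPM or more in Adipoq stromal cells or other fibroblasts, and all 8 were at least 2 times higher in Adipoq stromal cells. Over all 9274 genes that passed the same minimum, 7.1% were at least 2 times higher and 11.8% at least 2 times lower, with a median ratio of 0.940. The members were chosen on this contrast, so nothing is read from their count. Plin1, a coat protein of the fat droplet, and Lep, the gene of leptin, were the 2 that did not pass, with no UMI in any of the 22 cells.

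**Figure D1:**
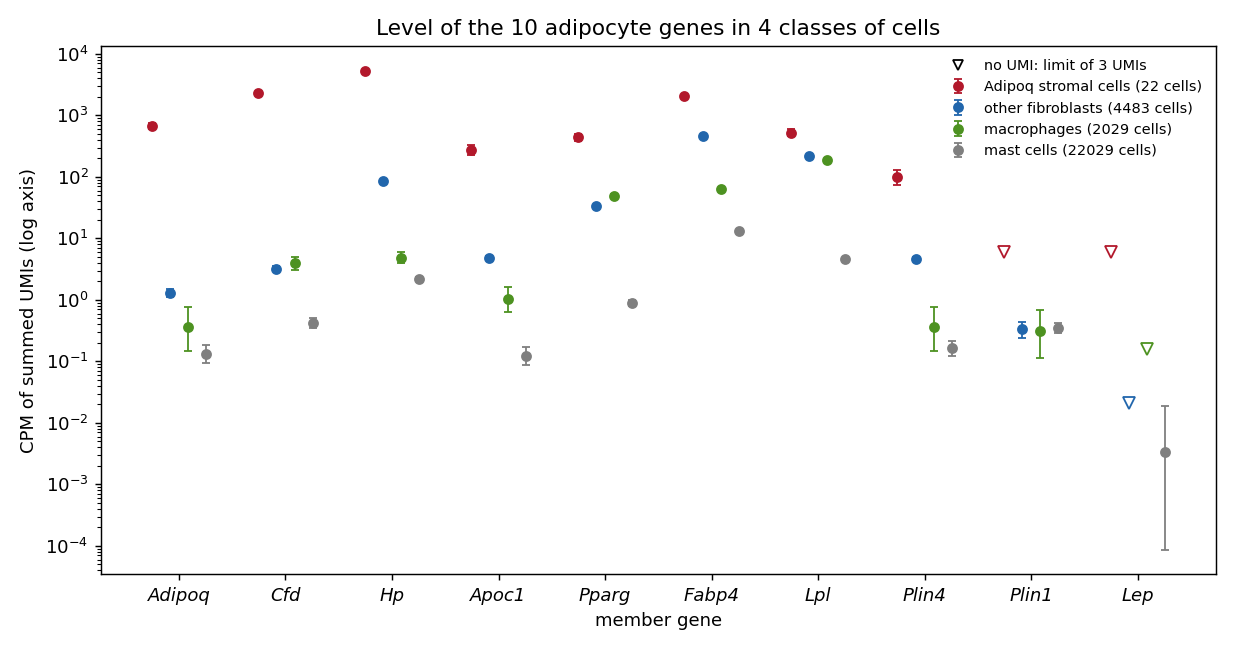
Level of each gene in 4 classes of cells, as CPM of summed UMIs on a log axis with exact Poisson 95% intervals. Open triangles stand for a class with no UMI and mark the level of 3 UMIs. Adipoq, Cfd, Apoc1 and Plin4 are below 5 CPM in all other classes, while Fabp4, Lpl, Hp and Pparg also reach 34.05 CPM or more in other fibroblasts, and Lpl, Fabp4 and Pparg 48.65 CPM or more in macrophages.

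Adipoq encodes adiponectin, a hormone made almost only by fat cells, and lies on chromosome 16 from 23146536 to 23158028 (GRCm38, plus strand), overlapping no other gene. It chose the cells, so its level in them is fixed from below: the 22 cells ranged from 208.2 to 5143 CPM with a median of 371.0. A few cells carried most of the range, with 4 of the 22 at 1000 CPM or more. Summed levels were 669.8 CPM (599.8 to 745.8) in Adipoq stromal cells, 1.29 CPM in other fibroblasts, 0.367 CPM in macrophages and 0.135 CPM in mast cells. Adipoq UMIs were rare outside the chosen cells: 219 cells kept had any, 112 of them other fibroblasts. The 39 cells at 200 CPM or more held 77.2% of the library's 1168 Adipoq UMIs.

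Pparg, the transcription factor of the program, lies on chromosome 6 from 115360951 to 115490399 (plus strand) and overlaps the antisense-strand gene Gm44079. A UMI was present in 17 of the 22 Adipoq stromal cells, which ranged from 0 to 2845 CPM around a median of 160.1. Other fibroblasts had a median of 0 and a highest cell of 1483, so single cells of both classes overlapped. The summed level was 442.5 CPM (386.0 to 505.0) against 34.05 CPM (33.10 to 35.03), a ratio of 13.0 (11.3 to 14.9). Macrophages had 48.65 CPM (45.57 to 51.89), above other fibroblasts, and mast cells 0.901 CPM. Of macrophages, 176 had Pparg at 200 CPM or more, as did 137 other fibroblasts, and only 3 and 18 of these also had an Adipoq UMI. Pparg therefore was not limited to cells with Adipoq UMIs.

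The 2 perilipin genes differed. Plin4, which coats small new droplets, lies on chromosome 17 from 56100591 to 56109803 (minus strand) and overlaps Hdgfl2 on the other strand. It had a UMI in 16 of the 22 Adipoq stromal cells, with a median of 62.13 and a highest cell of 551.1 CPM. Its summed level was 98.56 CPM (72.92 to 130.3) against 4.57 CPM in other fibroblasts, a ratio of 21.6 (15.8 to 28.9). Plin1, the main coat protein of the large droplet and gatekeeper of lipolysis, lies on chromosome 7 from 79720218 to 79732903 (minus strand). It had 0 UMIs in the 22 cells, with an upper Poisson limit of 7.42 CPM. The level was 0.332 CPM in other fibroblasts, 0.315 CPM in macrophages and 0.353 CPM in mast cells. Outside the fibroblast rule, 3 of the 10 Adipoq cells that met no rule had a Plin1 UMI, 5 UMIs in all (21.28 CPM, 6.91 to 49.65).

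Fabp4, the fatty acid carrier of adipocytes, macrophages and some endothelial cells, lies on chromosome 3 from 10204088 to 10208576 (minus strand). All 22 Adipoq stromal cells had a UMI, from 70.42 to 8743 CPM with a median of 1419. Other fibroblasts ranged from 0 to 14240 with a median of 213.4, so the classes overlapped widely. The summed level was 2058 CPM (1934 to 2188) against 457.5 CPM (453.9 to 461.0), a ratio of 4.50 (4.23 to 4.79). Among other fibroblasts, 2333 cells (52.0%) had Fabp4 at 200 CPM or more, and 3.3% of these had an Adipoq UMI.

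Lpl, the lipase that frees fatty acids from circulating lipoproteins, lies on chromosome 8 from 68880491 to 68907448 (plus strand). The 22 cells ranged from 0 to 1832 CPM with a median of 330.5, and other fibroblasts had a median of 119.6 and a highest cell of 4891. The summed level of 525.0 CPM (463.2 to 592.7) was 2.42 times (2.13 to 2.73) the 217.1 CPM of other fibroblasts, the smallest ratio of the 8. Without the cell with the most Lpl UMIs, which held 24.1% of them, the ratio was 1.97. Macrophages stood at 186.6 CPM (180.5 to 192.8), and 488 of them had Lpl at 200 CPM or more.

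Cfd encodes adipsin, a complement protease secreted by fat cells, and lies on chromosome 10 from 79890853 to 79892655 (plus strand). It had a UMI in 18 of the 22 Adipoq stromal cells, from 0 to 12360 CPM with a median of 1515. In other fibroblasts the median was 0 and the highest cell stood at 988.9, and 12 of the 22 cells were at 1000 or more, above every other fibroblast. Summed levels were 2287 CPM (2156 to 2424) and 3.21 CPM (2.92 to 3.52), a ratio of 713 (639 to 797). One cell held 35.2% of the Cfd UMIs, and without it the ratio was 494.5. That cell had several tags, with mast cell genes at 1.78% and macrophage genes at 0.185% of its UMIs. Of the 24 other fibroblasts with Cfd at 200 CPM or more, 16 had an Adipoq UMI below the limit.

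Hp encodes haptoglobin, a haemoglobin-binding plasma protein made by liver and fat, and lies on chromosome 8 from 109575128 to 109579172 (minus strand). It had a UMI in 21 of the 22 cells, from 0 to 41390 CPM with a median of 2929. The summed level was 5288 CPM (5088 to 5494) against 84.5 CPM (83.0 to 86.0) in other fibroblasts, a ratio of 62.6 (60.0 to 65.3). Unlike Cfd, Hp was also high in many cells without Adipoq: 506 other fibroblasts had 200 CPM or more, and 9.29% of these had an Adipoq UMI. At 1000 CPM or more the number was 105, of which 21.9% had one.

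Apoc1, an apolipoprotein that moves between lipoprotein particles, lies on chromosome 7 from 19689481 to 19692660 (minus strand). A UMI was present in 16 of the 22 cells, with a median of 183.7 and a highest cell of 1378 CPM. The summed level was 275.6 CPM (231.4 to 325.8) against 4.86 CPM (4.50 to 5.24), a ratio of 56.7 (46.9 to 68.2). Of 25 other fibroblasts at 200 CPM or more, 11 had an Adipoq UMI. Lep, the gene of the satiety hormone leptin, lies on chromosome 6 from 29060220 to 29073877 (plus strand). It had 1 UMI in all cells kept, in a mast cell. In Adipoq stromal cells it had 0 UMIs, with an upper Poisson limit of 7.42 CPM.

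Several of the genes had UMIs in the same cells. To compare cells of unequal depth, each was thinned to 5000 UMIs, which left out 2 of the 22 Adipoq stromal cells. The 20 left had UMIs of a median of 5 of the other 9 genes, and 4 or more in 80.0%. In 4359 thinned other fibroblasts the median was 1, and 2.57% had 4 or more. Without thinning, the medians were 6 and 3. The genes were chosen with their levels in Adipoq stromal cells known, so this contrast is a description only. Whether they occurred together in a cell more often than their separate levels would give was not tested.

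**Figure D2:**
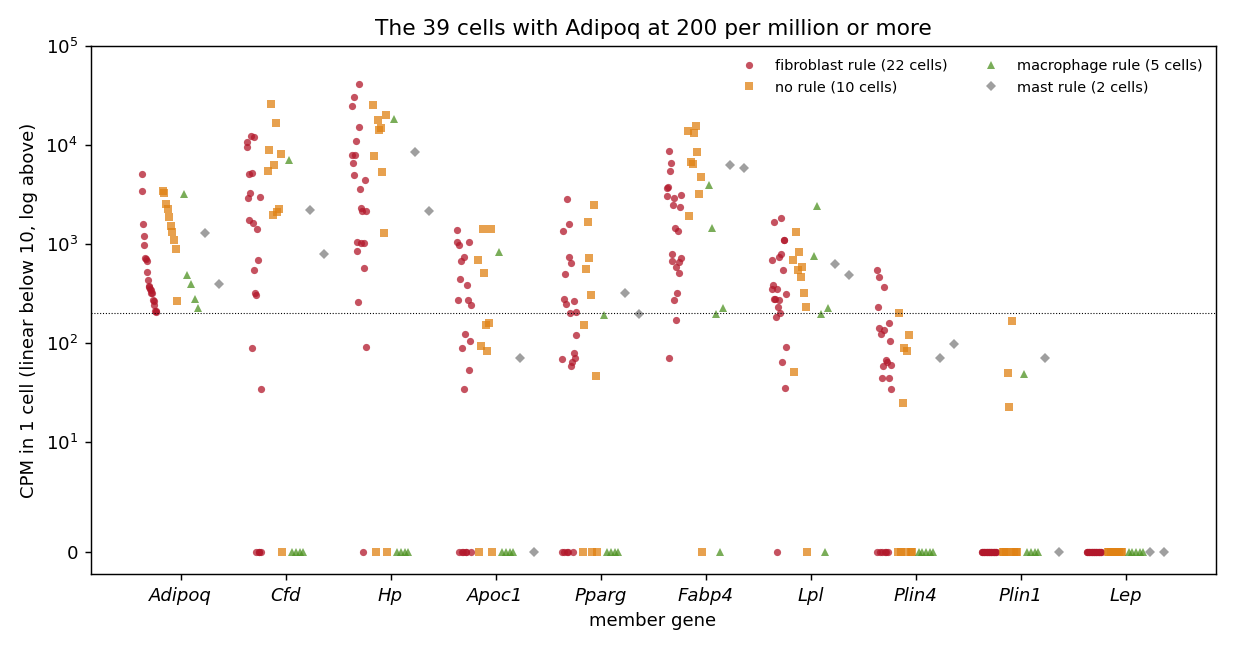
CPM of each gene in each of the 39 cells with Adipoq at 200 CPM or more, by the class rule the cell met. The axis is linear below 10 and logarithmic above, and the dotted line marks 200 CPM. Cells that met no class rule reach levels of Cfd and Fabp4 as high as the Adipoq stromal cells. For Hp their highest cell stands at 25480 CPM, against 41390 CPM among Adipoq stromal cells. Of the 5 macrophage-rule cells, 4 sit at 0 for Cfd and Hp.

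The fibroblast rule left out 17 of the 39 cells. The 10 that met no rule had 1660 CPM of Adipoq, 7008 CPM of Cfd, 13290 CPM of Hp, 7072 CPM of Fabp4, 748.9 CPM of Pparg and 766.0 CPM of Apoc1, each above the summed level in the 22. Plin4 (55.32 CPM) and Lpl (472.3 CPM) were below it. Their collagen and decorin genes held a median of 0.0740% of UMIs, under the 0.3% limit. Cidec, which fuses lipid droplets, had 123.4 CPM there against 14.08 CPM in the 22 cells, and 66.6 CPM without the cell that held 16 of its 29 UMIs. Mast cell genes reached 1% or more of UMIs in 5 of these 10 cells and in 4 of the 22 (18.2%), against 29.0% of other fibroblasts. Each of those 4 cells had several tags. The part of mast cell RNA in the levels was not tested. Of the 5 cells that met the macrophage rule, 4 had the Macrophages tag alone and 1 or 2 Adipoq UMIs. Only the other one, with 133 UMIs of Adipoq and 287 of Cfd, shared the pattern. It had several tags and 41152 UMIs in all, with mast cell genes at 1.27% of them and macrophage genes at 0.289%. Whether it held RNA of more than 1 cell was not tested. A gene at 1 or 2 UMIs in a shallow cell passes 200 CPM easily, and 8 of the 39 cells had under 3 Adipoq UMIs.

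Within cells that met the fibroblast rule, the genes were followed over 5 ranges of the cell's own Adipoq level: none (4371 cells), above 0 and below 100 CPM (98), 100 to 200 (14), 200 to 500 (13) and 500 or more (9). Cfd stood at 1.24, 59.93, 217.3, 695.6 and 5848 CPM over these ranges. Hp stood at 67.33, 614.3, 1677, 3184 and 9996 CPM. Both were higher in each range than in the one before, without overlap of counting intervals, and cells just under the 200 limit already had high levels.

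Pparg went from 32.35 through 90.66, 158.0 and 291.0 to 781.4 CPM, and Fabp4 from 449.0 through 735.7, 1089 and 1208 to 3959 CPM. Few cells carried the upper Pparg values. Single cells held 64 and 35 of the 120 Pparg UMIs at 500 or more, and 47 of the 100 at 200 to 500. Apoc1 (3.42, 35.34, 249.4, 151.3 and 553.5 CPM) broke the order in the 200 to 500 range. Lpl differed least, at 214.4 CPM with no Adipoq UMI and 423.3 CPM at 500 or more, with its highest value of 570.5 CPM in between. Matrix genes went 2 ways: Col1a1 stood at 3332 CPM with no Adipoq UMI and 260.5 CPM at 500 or more, and Mgp, an inhibitor of calcification, at 16880 and 2129 CPM. Dcn, the proteoglycan decorin, was higher with Adipoq, from 1492 to 6128 CPM. The collagens and Dcn were part of the fibroblast rule, so their levels are a description of the cells it let through.

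**Figure D3:**
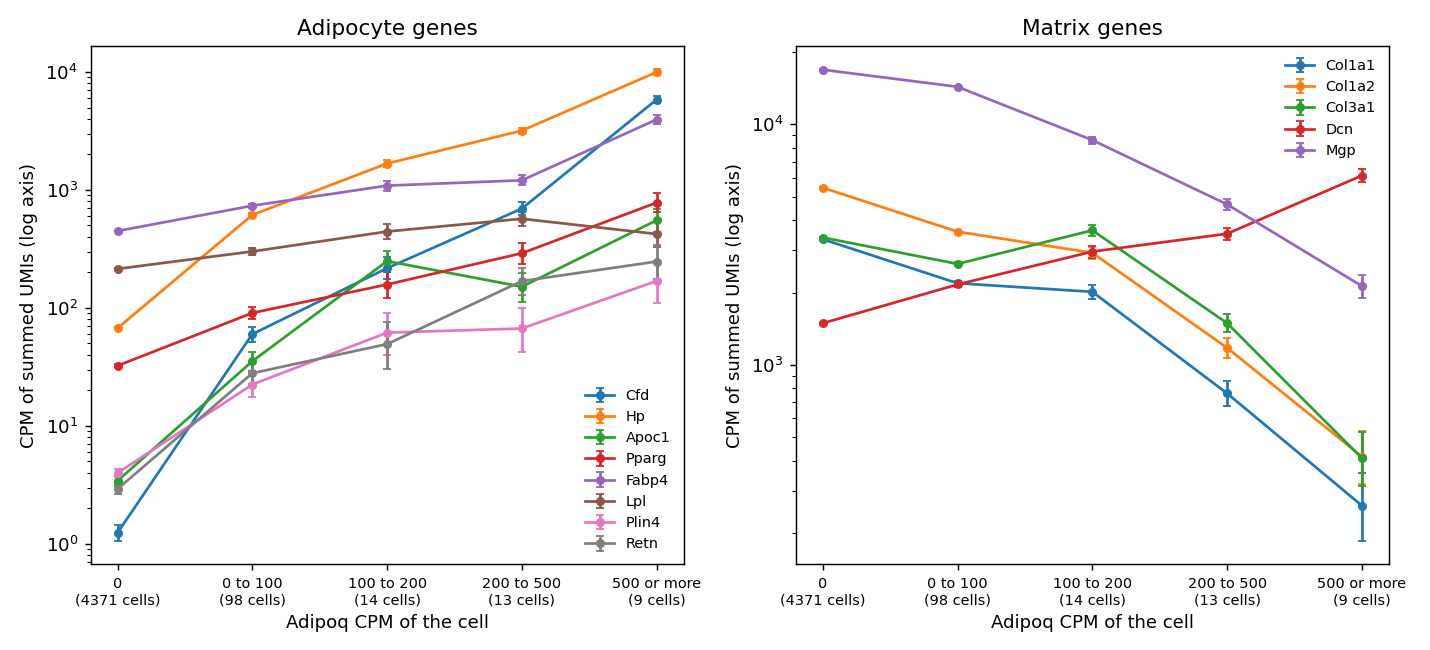
CPM of adipocyte genes (left) and matrix genes (right) on log axes, in fibroblast-rule cells grouped by their own Adipoq level, with exact Poisson 95% intervals. Cfd goes from 1.24 to 5848 CPM and Lpl only from 214.4 to 423.3 CPM, while Col1a1 goes the other way, from 3332 to 260.5 CPM.

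By Pearson r of log2(UMIs + 1) over 4379 thinned stromal cells, 20 of them Adipoq stromal cells, the genes most like Adipoq among those seen in at least 5% of cells were Hp (0.333), Rarres2 (0.225), Trf (0.218), C4b (0.204), H2-Q7 (0.191), Nr1h3 (0.171), Plin2 (0.162), H2-D1 (0.155), H2-K1 (0.154) and Serpina3m (0.154). Rarres2 encodes the adipokine chemerin, Trf transferrin, C4b a complement component, Nr1h3 the sterol receptor LXRα, Plin2 a droplet coat protein, and the H2 genes class I histocompatibility proteins. Of the members seen in fewer cells, Cfd had r = 0.729, Apoc1 0.409 and Plin4 0.241. Pparg had r = 0.122, Fabp4 0.0971 and Lpl 0.0441. All points share 1 library, and these values are a description with no test.

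Where a gene's UMIs lay in the library differed among the 10. The 39 Adipoq cells, 0.127% of cells kept, held 80.0% of the Cfd UMIs, 32.7% of Hp and 29.9% of Apoc1. They held only 4.68% of Pparg, 3.55% of Fabp4 and 1.10% of Lpl. Other fibroblasts held 74.4% of Fabp4 and 77.7% of Lpl, and mast cells 59.0% of the 178 Plin1 UMIs. The Plin1 share follows the size of the mast cell class, as Plin1 had 0.353 CPM there and 0.347 CPM over all cells kept. Cfd UMIs thus lay mostly in these few cells, and Fabp4 and Lpl UMIs mostly outside them.

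Free RNA from broken stromal cells can give UMIs in any droplet, so levels in macrophages and mast cells were set beside 8 fibroblast markers that those cells should lack: Pdgfra, Lum, Sparc, Fbln2, Col6a1, Col6a2, Serpinf1 and Mgp. In mast cells these markers stood at 0.0129 to 0.0250 of their level in all stromal cells. Lpl (0.0211), Hp (0.0213) and Apoc1 (0.0214) lay within that range and cannot be told from background. Pparg (0.0254), Fabp4 (0.0284), Plin4 (0.0336), Adipoq (0.0371) and Cfd (0.0375) lay just above it, and the intervals of Pparg (0.0224 to 0.0287) and Plin4 (0.0246 to 0.0450) reached into it. The stromal level in these ratios omits the 17 Adipoq cells that did not meet the fibroblast rule alone. With them in it, Adipoq (0.0177), Cfd (0.0167) and Pparg (0.0245) lay within the markers' range, which then ended at 0.0250, and only Fabp4 (0.0276), Plin4 (0.0330) and Plin1 stayed above it. Plin1 stood apart in the main values, at 1.07 (0.750 to 1.54) of its stromal level, with 105 UMIs in 73 mast cells.

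In macrophages the markers stood at 0.0191 to 0.0800, the top set by Serpinf1 and the next marker, Lum, at 0.0417. Hp (0.0475) and Plin4 (0.0750) lay between these 2 markers and so within the range. Pparg stood at 1.37 (1.28 to 1.47) of its stromal level and Lpl at 0.855 (0.826 to 0.885), far above the markers. Cfd (0.352), Apoc1 (0.181) and Fabp4 (0.136) were also above the range, with 3.94 CPM, 1.05 CPM and 62.98 CPM. Adipoq, at 0.101 (0.0405 to 0.210) from 7 UMIs, was above it with an interval that reached into it. With all 39 Adipoq cells in the stromal level, Adipoq lay within the range (0.0483) and Cfd stood at 0.156, still above it. In 293 barcodes with under 1000 UMIs, which the filters removed, there were 1 UMI of Adipoq, 23 of Cfd in 5 barcodes, 6 of Hp and 90 of Fabp4. The barcode with the Adipoq UMI held 19 of the Cfd UMIs. Without it, the other 292 barcodes had 4 UMIs of Cfd, 6 of Hp and 62 of Fabp4.

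**Figure D4:**
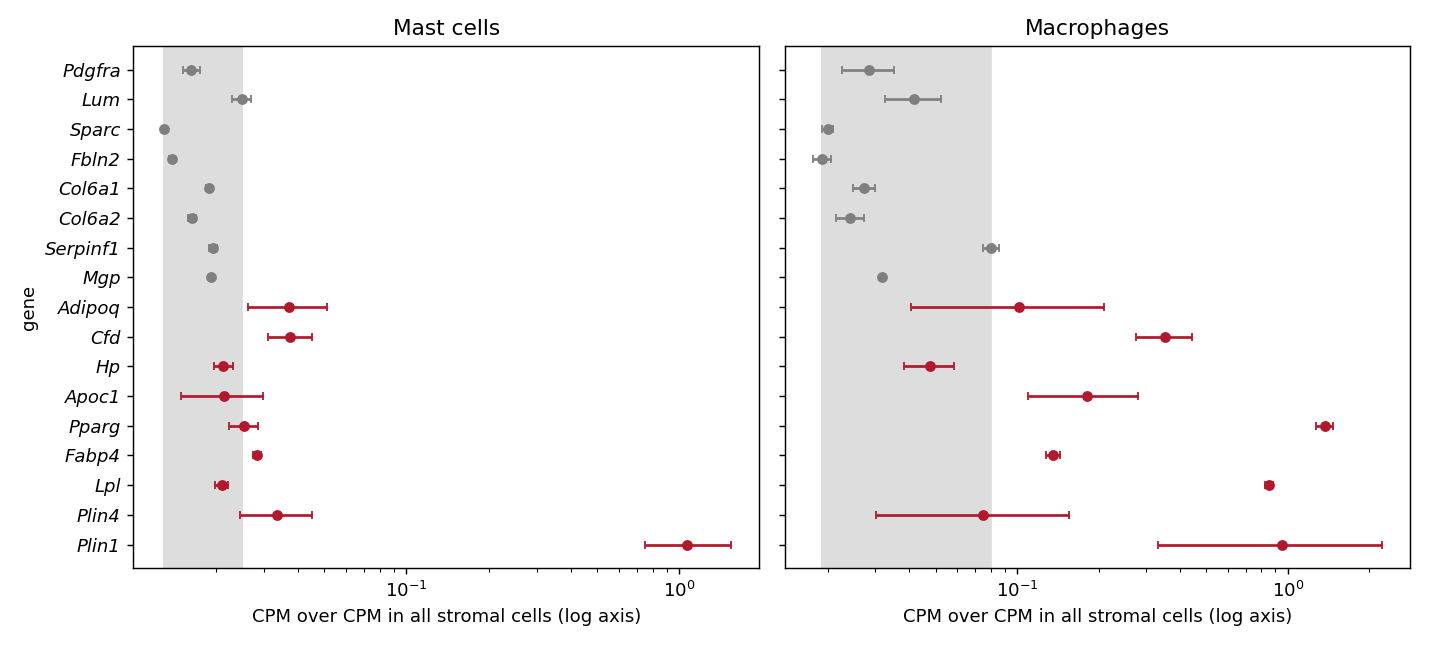
CPM in mast cells (left) and macrophages (right) over CPM in all stromal cells, on log axes with exact 95% intervals for counting error, for 8 fibroblast markers (grey) and 9 of the 10 genes (red). Grey bands span the markers. Lep is left out because stromal cells had no UMI of it. Plin1 stands far above the band in both panels, and Pparg and Lpl do so in macrophages alone.

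Shares of thinned cells were set beside these ratios. At 5000 UMIs per cell, Lpl had a UMI in 31.9% of 1637 macrophages (29.6 to 34.2), 50.5% of other fibroblasts and 1.84% of mast cells. Pparg had one in 13.7% of macrophages (12.1 to 15.5), 11.9% of other fibroblasts and 0.476% of mast cells. For Cfd the shares were 1.96%, 1.03% and 0.210%, and for Adipoq 0.244%, 0.436% and 0.0715%. All 8 fibroblast markers had a higher ratio to stromal cells in macrophages than in mast cells, so the mast cell share is no background for macrophages.

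Adipocyte genes outside the 10 were taken from 5 lists of textbook function. Of 67 in the matrix, 46 passed the minimum, of which 22 were at least 2 times higher in Adipoq stromal cells, 1 at least 2 times lower and 23 neither. Their median ratio was 1.77, beside 0.940 over all genes tested and a background of 7.1% higher and 11.8% lower. Without the cell with the most UMIs of each gene, 17 of the 22 still passed, and Cidec, Mgll, G0s2, Gpam and Dgat2 did not. The lists were drawn up with earlier results of these cells known.

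Genes of droplets and lipolysis were higher in 6 of 8 tested. They were Plin2 (6.48 times, 436.5 against 67.35 CPM), Pnpla2, the first lipase of triglyceride breakdown (16.7 times), the next lipases Lipe (6.12 times) and Mgll (4.34 times), G0s2, an inhibitor of Pnpla2 (2.76 times), and Cidec, 83.1 times from only 7 UMIs in 4 cells. Mgll, like Cidec, rested on 7 UMIs in 4 cells. Plin3 (1.26) and Abhd5 (1.67) did not pass. Of secreted and other identity genes, 5 of 8 were higher: Retn, the hormone resistin (53.3 times, 193.1 against 3.62 CPM, in 14 of 22 cells), Agt, angiotensinogen (21.3 times), Rbp4, a retinol carrier (5.18 times), Sncg (3.95 times) and Mgst1 (2.35 times).

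Of 12 genes of fatty acid and triglyceride synthesis, 6 were higher and 1 lower. Triglyceride assembly genes Gpam (2.35 times), Agpat2 (2.73 times), Lpin1 (2.82 times) and Dgat2 (4.30 times) were higher, as was Acsl1 (3.49 times), which activates fatty acids. Gpam rested on 9 UMIs and Dgat2 on 6. Dgat1, on the same list, did not reach the minimum, at 2.01 against 6.26 CPM. Scd1, a desaturase, was 15.6 times higher, with 73.5% of its UMIs from 1 cell, and Scd2 stood at 0.427 of its level in other fibroblasts. The makers of new fatty acids, Fasn (0.721), Acaca (1.48) and Acly (0.975), did not pass. In lipid and glucose uptake 3 of 10 were higher: the fatty acid receptor Cd36 (24.1 times), Apoe (5.96 times) and Angptl4, an inhibitor of Lpl (5.23 times). The insulin-responsive glucose transporter Slc2a4 had 0 UMIs.

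Among transcription factors, 2 of 8 tested were higher, Cebpa (4.95 times, 8 UMIs in 8 cells) and Rxra, the partner of PPARγ (2.86 times). Cebpb (1.03), Cebpd (0.873), Ebf1 (0.683) and Ebf2 (1.22) did not pass either limit. Of 17 tested genes of adipocyte precursors, 4 were higher and 8 lower, beside 7.1% and 11.8% of all genes tested. The median ratio of the 17 was 0.698. The lower ones were Pdgfrb (0.246), Fmo2 (0.255), F3 (0.409), Cd34 (0.414), Icam1 (0.0466) and 3 with no UMI in the 22 cells, Gdf10, Dlk1 and Clec11a. Few UMIs lay behind F3 (12), Cd34 (4) and Icam1 (1), and the interval of Cd34 (0.113 to 1.06) included 1. With the set level of 3 UMIs in place of 0, Dlk1 was 4.80-fold and Clec11a 4.63-fold lower. Ly6a, which encodes the surface antigen Sca-1 (2.52 times), Kitl (5.11 times, 49.7% from 1 cell), Foxc1 (2.21 times) and Cxcl14 (4.98 times) were higher. Without each gene's top cell, Ly6a and Foxc1 no longer passed.

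**Figure D5:**
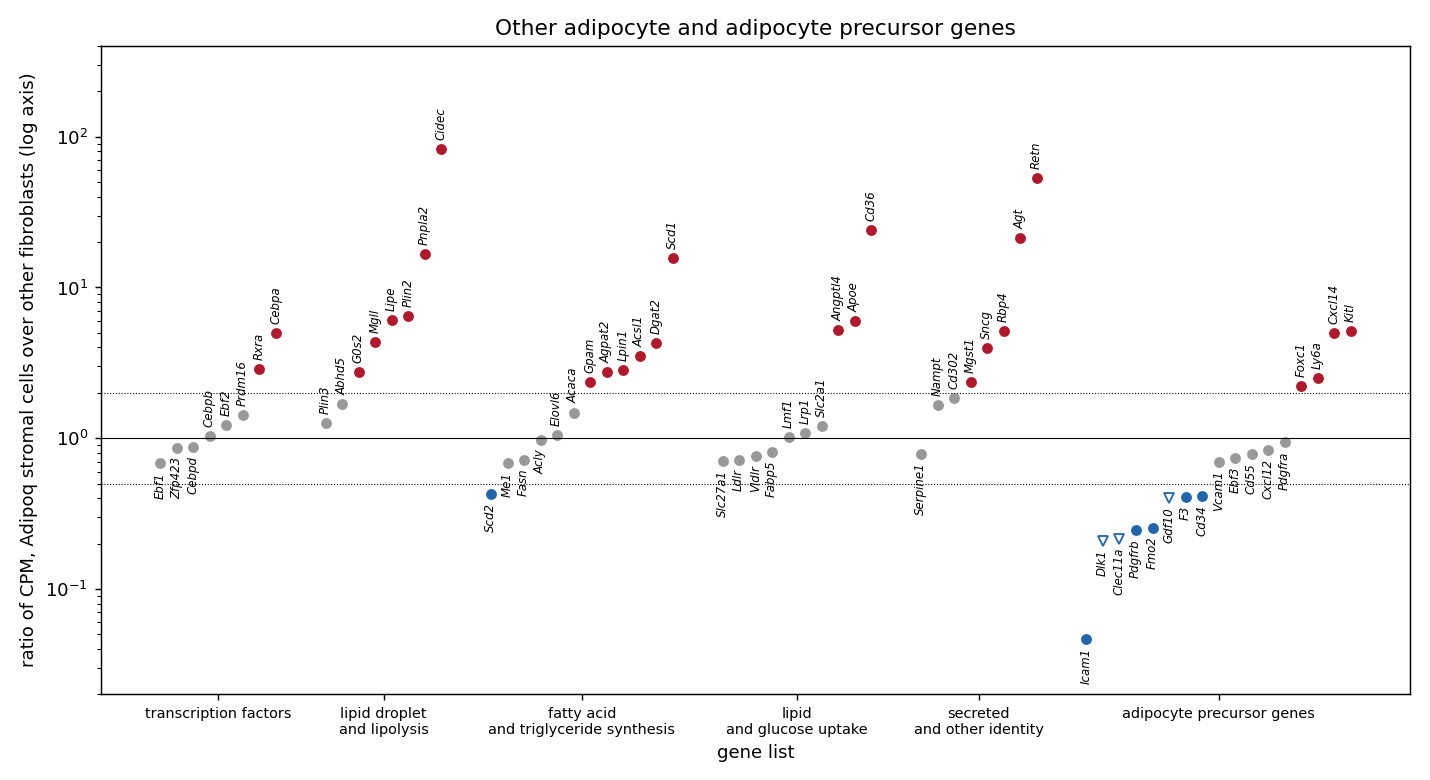
Ratio of CPM in Adipoq stromal cells over other fibroblasts, on a log axis, for adipocyte and adipocyte precursor genes outside the 10 that passed the CPM minimum. Red and blue points lie past 2 times in either direction (dotted lines), grey ones between, and open triangles are limits for genes with no UMI in Adipoq stromal cells. Droplet, lipolysis and secreted genes lie mostly in red, and precursor genes on both sides.

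The label of these cells as stromal was checked on fibroblast markers that the rule did not use. UMIs of all 8 were present in the Adipoq stromal cells, Lum in only 2 cells with 94.7% of its UMIs from 1, at a summed 9689 CPM against 25860 CPM in other fibroblasts and 452.7 CPM in mast cells. Sparc (0.732), Serpinf1 (0.962), Pdgfra (0.940) and Fbln2 (0.559) lay between the limits, and Mgp (0.231), Col6a2 (0.240), Col6a1 (0.359) and Lum (0.421) were lower. Of 8 markers of mature fat cells, Adipoq chose the cells. Of the other 7, Retn and Cidec passed the minimum and were higher, Cidec not without its top cell, and 4 (Plin1, Lep, Car3 and Slc2a4) had no UMI. The last, Adrb3, had 4 UMIs in 4 cells, at 8.05 CPM against 0.0777 CPM in other fibroblasts, and did not reach the minimum. Brown fat markers were near 0 (10.06 CPM in all, Ucp1 with no UMI). The cells are therefore called by their rule and not by the name of a fat cell.

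Markers of other cells were looked at in the same 22 cells. Macrophage markers summed to 263.5 CPM, against 104.3 CPM in other fibroblasts and 7225 CPM in macrophages, with 3 of 6 tested at least 2 times higher (Ctss, Lyz2 and Cd14). For each, 1 cell held at least 50.0% of the UMIs, 54.5% for Ctss, 57.1% for Lyz2 and 50.0% for Cd14. Lyz2 no longer passed without its top cell. Mast cell markers summed to 2611 CPM against 3186 CPM in other fibroblasts and 25400 CPM in mast cells, with Kit and Hdc lower. Cpa3, which the mast cell rule also used, gave 2005 CPM of the first sum and 2192 CPM of the second. These sums are therefore set in part by that rule. All 6 smooth muscle markers had no UMI, and 4 of 6 endothelial markers had none. One of the 22 cells, the one with the most Cfd UMIs, had macrophage genes at 0.185% of its UMIs, just under the 0.2% limit. The part of macrophage RNA in the levels was not tested.

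Over all genes with 100 CPM or more in Adipoq stromal cells, the 15 highest ratios included Cfd, Adipoq, Hp and Apoc1. Next to them stood Lrg1, a plasma glycoprotein (62.0 times), Retn, the B cell chemokine Cxcl13 (42.1 times, 1623 against 38.56 CPM), the acute phase protein Saa1 (42.1 times, 50.0% of UMIs from 1 cell), 2610528A11Rik (34.2 times), Rarres2 (26.9 times, in all 22 cells), Cd36, Agt, Trf (17.3 times) and Pnpla2. Kctd8 (170.9 times) drew 75.8% of its UMIs from 1 cell. Of genes with 100 CPM or more in other fibroblasts, the lowest ratios were those of Meg3 (0.0167), Il33 (0.0263), Igfbp6 (0.0637), Cdh2 (0.0657), Col8a1 (0.0829), Mfap5 (0.0918), Gramd1b (0.0918) and Cryab (0.0959), and Gria4 and Tenm3 had no UMI in the 22 cells. Meg3, a long non-coding RNA, stood at 8.05 CPM against 480.5 CPM.

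By tag, the 22 Adipoq stromal cells split into 13 with the Matrigel tag alone, 6 with several tags and 3 without a tag. Of stromal cells with the Matrigel tag alone, 0.589% (0.314 to 1.01) were Adipoq stromal cells. None of 282 with the Cafum tag alone was, which leaves an exact upper limit of 1.30%, above the Matrigel share. Other fibroblasts with the Matrigel tag had 530.2 CPM of Fabp4, 99.17 CPM of Hp and 39.15 CPM of Pparg, against 300.1, 48.08 and 20.03 CPM with the Cafum tag. Lpl stood at 209.2 and 210.6 CPM and Cfd at 3.44 CPM with either tag. With 1 library and no description of the tags, these values carry no test, and the suspension and the cells it held cannot be told apart.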

How the data were processed

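Single-cell RNA was measured in 1 library. The authors deposited raw UMI counts for each gene in each barcode. Cell Ranger 7.0.0 wrote them, per the matrix header, and the submitters' processing notes also name STAR, R 4.1.3, Seurat 4.1.1 and the build mm10. Use of strand and of intronic reads is not given in the sources used here. Of 34813 barcodes, those with at least 500 genes, 1000 UMIs and at most 10% mitochondrial UMIs were kept (33964), and 3209 of these called doublets by Scrublet (scanpy 1.11.5, threshold 0.564, 9.32% of all barcodes) were removed, leaving 30755 cells with a median of 12728 UMIs. The doublet rate expected for this many barcodes was 27.9%, above the share called, so doublets may remain among the cells kept. Of these, 770 met more than 1 class rule and were left out of the classes. Tag rows held 21.9% of all UMIs and were kept out of gene totals. A tag was called at 2 times its background, or 1.4 times for Cafum.

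Counts were summed over each class and given as CPM with exact Poisson 95% intervals, and shares with exact Clopper-Pearson 95% intervals. These cover counting error only. As cells of 1 library are no replicates, no p-value is given. A gene was compared at 10 CPM or more in 1 of the 2 classes and counted past 2 times. A class with 0 UMIs was given the level of 3 UMIs. The ratio was also run on simulated counts with known folds. These had Poisson error only and no spread between cells, so they do not cover genes carried by single cells. Genes of each list past 2 times, up to 4 more with the highest CPM, the 15 highest and 10 lowest ratios at 100 CPM or more and the 10 genes most like Adipoq are named. Members and lists were chosen with earlier results of these data known. Gene positions are from GENCODE (GRCm38). Alternatives varied filters, class limits, tags, thinning to 5000 or 10000 UMIs, fold and CPM minimum.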

Additional observations from a re-analysis of the deposited data

How the results depend on the processing

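All 8 ratios of members stayed above 1 under all 17 alternatives run for each, 136 values in all. Lpl ranged from 1.94 (Adipoq at 500 CPM or more) to 3.79 (Matrigel tag alone), Fabp4 from 3.56 to 8.62, Pparg from 9.34 to 22.6, Hp from 45.9 to 108.6 and Cfd from 494.5 to 1198. The count of members at least 2 times higher was 7 to 9. Plin1 made the ninth when every cell with Adipoq at 200 CPM or more was used, whatever class it met.

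The share of Adipoq stromal cells was 0.117% with Adipoq at 100 CPM or more, 0.0293% at 500, 0.127% for every cell at 200 CPM or more, 0.0390% with a collagen and decorin share of 0.6%, and 0.460% of cells with the Matrigel tag alone. Genes at least 2 times higher numbered 658 and became 1290 with Adipoq at 500 CPM or more, 2411 and 1161 with cells thinned to 5000 and 10000 UMIs, 1332 and 193 with folds of 1.5 and 4, and 235 and 3039 with CPM minimums of 50 and 1. Genes at least 2 times lower numbered 1098 and became 717 with Adipoq at 100 CPM or more, 2122 and 300.0 with folds of 1.5 and 4, and 299 with a CPM minimum of 50. Without the cell with the most UMIs of each gene, an alternative chosen after seeing the data, 282 were higher and 1954 lower. This alternative tends to lower the ratio, but a gene left with no UMI is given the set level for such a class and can rise. The mesothelial marker Wt1, with 1 UMI in Adipoq stromal cells, no longer counted as lower. In thinned cells 1 UMI of the Adipoq stromal cells lies near the CPM minimum, so genes with very few UMIs enter the count.

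Members above the marker range in mast cells numbered 6 and became 3 (Plin1, Plin4 and Fabp4) when every cell with Adipoq at 200 CPM or more was used, and 3 with Adipoq cells that met neither the macrophage nor the mast cell rule, the other alternative chosen after seeing the data. Under the remaining alternatives the mast cell count was 4 to 8. In macrophages the count of 7 was 6 to 8 under every alternative. No paired analysis was possible because there is 1 library. Depth limits Plin1 and Lep, whose 0 UMIs in Adipoq stromal cells have an upper Poisson limit of 7.42 CPM.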
